A study of Mus musculus with 8 samples.

Results

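The 10 genes described here encode transcription factors, receptors and signalling proteins of follicular helper, follicular regulatory and memory-like T cells, namely Bcl6, Cxcr5, Tox, Tox2, Sh2d1a, Cd40lg, Id3, Tcf7, Lef1 and Il6ra. They were chosen by name from the 19191 gene rows of an RNA-seq count table, each symbol had 1 row, and all 10 were among the 14274 genes with enough counts to be tested. The table held 4 libraries of regulatory T (Treg) cells, isolated by flow sorting from large-intestine lamina propria of C57BL/6 mice, 2 called KO and 2 called WT. KO mice were Ahrf/- Foxp3Yfp-Cre and WT mice were Ahrf/+ Foxp3Yfp-Cre. Both genotypes thus carried a floxed (f) allele of Ahr, the gene of the aryl hydrocarbon receptor, together with Cre recombinase made from the Foxp3 locus, which deletes the floxed allele in cells that express Foxp3. The second allele was null (-) in KO and intact (+) in WT, so WT Treg cells kept 1 working copy, and the other cells of KO mice had 1 working copy where those of WT mice had 2. The labels used here give no age and do not say whether the 2 libraries of a genotype were separate animals; the p-values cover the spread between these samples alone, and that spread may be technical. The comparison of KO with WT asks whether transcripts of this follicular and memory-like programme differed in gut Treg cells when Ahr was lost.

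BCL6 is a transcriptional repressor that defines follicular T cells, which enter B cell follicles by way of the chemokine receptor CXCR5 and help B cells through CD40 ligand and contacts that need the adaptor SAP, the product of Sh2d1a. A part of the Treg population takes on the same factors and restrains germinal centres, also in the lymphoid tissue of the gut. The HMG-box factors encoded by Tcf7, Lef1, Tox and Tox2 act upstream of or beside BCL6, and Tcf7, Lef1 and Id3 also mark resting and memory-like T cells that have not completed effector differentiation.

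The aryl hydrocarbon receptor binds DNA at sites with the core letters GCGTG, so the promoters of the members were searched for this core on both strands (CACGC on the other strand). RefSeq (GRCm38.p6) gave promoter sequence for 6 of the 10 members, Bcl6, Tox2, Id3, Tcf7, Lef1 and Il6ra, with 15 annotated starts in all. Cxcr5, Tox, Sh2d1a and Cd40lg were the other 4. In the 250 bases before a start, the core was found at 2 of the 15 starts, 1 of Tox2 and the start of Id3, against 28.2% of 32851 such windows over all genes. The windows that hold a match are shown because they are the places among the members where the letters of the receptor's core occur. Capitals mark the core, and both sequences are given 5′ to 3′ on the plus strand, ending at the base before the start. The first lies at chr2:163202877-163203126 and the second at chr4:136143572-136143821 (both GRCm38.p6, plus strand), and the core begins 102 bases before the start of Tox2 and 8 bases before that of Id3.
Tox2: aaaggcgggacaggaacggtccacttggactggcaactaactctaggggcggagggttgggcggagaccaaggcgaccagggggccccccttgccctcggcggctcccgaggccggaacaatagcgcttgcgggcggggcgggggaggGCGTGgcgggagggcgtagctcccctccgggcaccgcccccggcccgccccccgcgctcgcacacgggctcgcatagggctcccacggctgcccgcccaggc
Id3: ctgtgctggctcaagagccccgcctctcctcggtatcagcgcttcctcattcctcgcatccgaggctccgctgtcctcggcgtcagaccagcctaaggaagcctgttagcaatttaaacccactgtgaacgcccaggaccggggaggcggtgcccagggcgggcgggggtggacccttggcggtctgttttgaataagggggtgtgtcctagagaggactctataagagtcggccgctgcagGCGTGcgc
The core of the TCF and LEF sites, CTTTGA with TCAAAG on the other strand, was found at 4 of the 15 starts, in 3 members (Bcl6, Tox2 and Lef1), against 13.8% of all windows. None of these 4 windows held a GCGTG match, so no matches of the 2 cores overlapped, and 2 of them belong to starts of Tox2 that lie 1 base apart. A match describes letters in the window and is not a binding site. The median log2 fold change of KO over WT was 0.01 over the 4696 tested genes with a GCGTG match and 0.00 over the 5047 without one.

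Total gene counts ran from 26862922 to 62402450 per library, and replicate 2 was sequenced deeper in KO and WT alike and held more of its counts on Lars2 (0.724% in KO and 1.66% in WT) than replicate 1 (0.0633% and 0.0367%). Levels are given below as CPM, counts per 1000000 counts of the library after scaling for composition, and transcript lengths were not used, so levels are compared between libraries and not between genes. Foxp3, Il2ra, Ctla4, Ikzf2, Cd4 and Cd3e were detected in every library, and Foxp3 stood at 250.1 and 259 CPM in KO and 280 and 252 CPM in WT. Ahr counted over the whole gene had a log2 fold change of -0.09 ± 0.09 (values after ± are standard errors throughout) and checks neither the deletion nor the labels, while its induced repressor Ahrr stood at 0.391 and 0.265 CPM in KO and 7.30 and 6.55 CPM in WT. Markers of B cells, which also use Bcl6, Cxcr5 and Id3, were all 10 found with summed levels of 23.4 to 28.5 CPM in KO and 30.4 CPM in both WT libraries. None was at 0, 8 of the 10 had a negative log2 fold change and 0 were called by edgeR, and their part in the levels of Bcl6, Cxcr5 and Id3 was not tested. In the quasi-likelihood test of edgeR over the whole table, 0 genes passed an adjusted p (Benjamini-Hochberg) of 0.05, and 407 stood at an unadjusted p under 0.05. DESeq2 called 48, limma-voom called 0, and the authors' deposited table held 66. Ahrr, with a log2 fold change of -4.42, was called by DESeq2 (adjusted p = 3.11e-18) and in the authors' deposited table (1.32e-08). It was not called by edgeR (adjusted p = 0.218) or by limma-voom (0.312). The main test thus missed even this difference, so 0 calls by edgeR below do not show that a gene or list was unchanged.

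No member was called different between KO and WT. By edgeR 0 of the 10 members passed, against a background of 0 percent of the genes tested, and 0 of the 10 had an unadjusted p under 0.05, against 2.85% of genes. DESeq2 called 0 members (background 0.267%), limma-voom called 0 (background 0) and the authors' deposited table held 0 members under the threshold (background 0.344%). The log2 fold changes of KO over WT ran from -0.32 for Tox2 to 0.17 for Il6ra, 8 members had a negative and 2 a positive value, and the median was -0.09, against a median of 0.01 and 48.0% negative values over all genes tested. Every member had an adjusted p of 1.00 by edgeR and by DESeq2, and the authors' deposited table gave 0.858 for Tcf7 and 0.889 for each of the others. A p that misses the threshold does not show equal levels, so the 95% interval of each difference is given. For 7 members the interval lay within 1.5-fold in either direction, and for Bcl6, Cxcr5 and Tox2 it reached further. Both KO libraries lay below both WT libraries for 3 members, Tox, Tcf7 and Lef1 (13.4% of all genes tested), and above them for 1 member, Il6ra (13.5%). Together these were 4 of 10 members, against 27.0% of all genes tested. In bulk samples a lower level in each cell and a smaller share of cells with the transcript cannot be told apart.

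**Figure D1:**
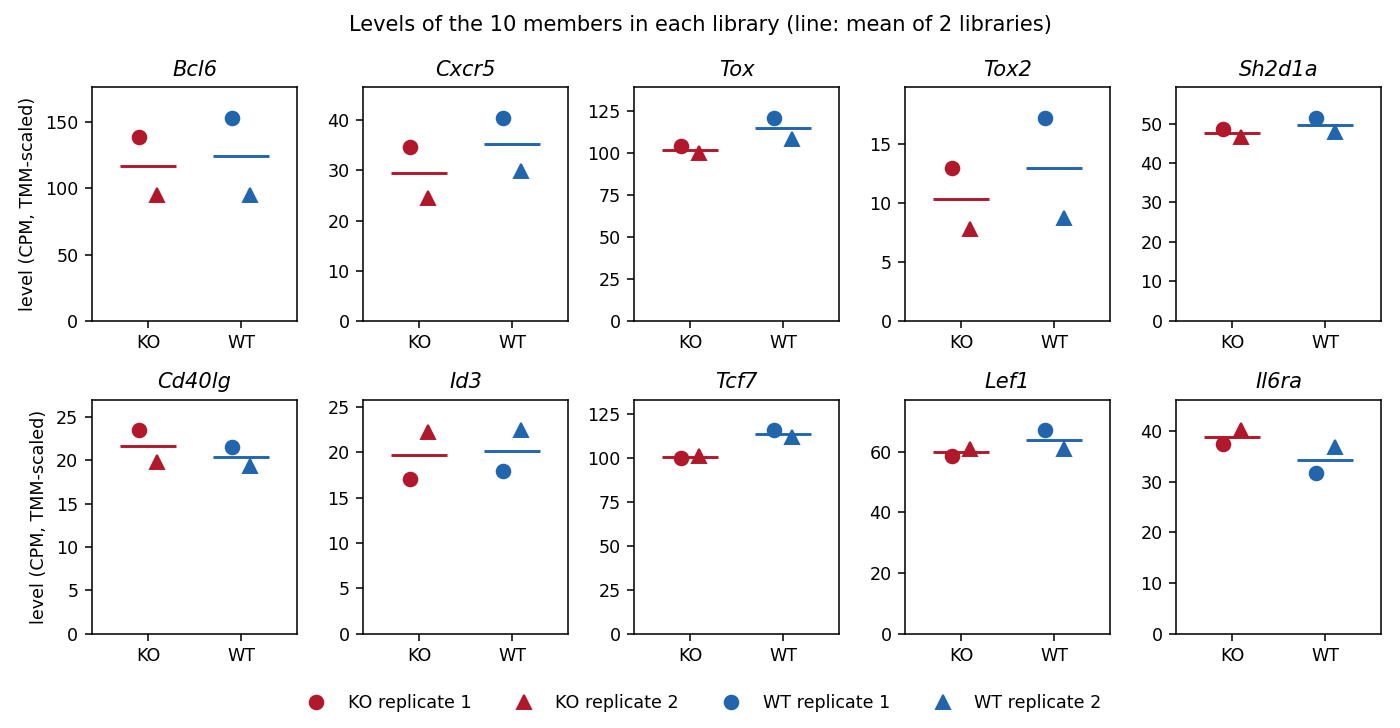
Level of each member in CPM (y axis, from 0, 1 panel per gene) in the KO (red, left) and WT (blue, right) libraries, with circles for replicate 1, triangles for replicate 2 and a line at the mean of 2 libraries. The KO and WT points are separate for Tox, for Tcf7 and, narrowly, for Il6ra. In the panel of Lef1 the triangles of KO and WT lie at nearly the same height. In the panels of Bcl6, Cxcr5 and Tox2 the circles lie above the triangles in both genotypes.

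Bcl6, the repressor that defines follicular T cells (chromosome 16, 23965138 to 23988938, minus strand, mm9), stood at 139 and 94.95 CPM in KO and 153 and 94.9 CPM in WT. The replicate 1 libraries were high and the replicate 2 libraries low in both genotypes, and the groups overlapped. The log2 fold change was -0.08 ± 0.28 (95% interval -0.78 to 0.61), so the data allow anything from 0.582 to 1.53 times the WT level. The sign rested on single libraries, which gave -0.39 with KO replicate 1 left out, 0.17 with KO replicate 2 left out and 0.30 with WT replicate 1 left out. Cxcr5, the receptor for the follicle chemokine CXCL13 (chromosome 9, 44319871 to 44334504, minus strand, mm9), stood at 34.6 and 24.5 CPM in KO and 40.5 and 29.9 CPM in WT. It showed the same split by replicate number, and within each number the KO library was the lower. Cxcr5 had a log2 fold change of -0.25 ± 0.22 (95% interval -0.81 to 0.31), and this was -0.23 among the replicate 1 libraries and -0.28 among the replicate 2 libraries. It ran from -0.53 without KO replicate 1 to -0.02 without WT replicate 1. The gene of its ligand, Cxcl13, held 19 counts over all 4 libraries and was not tested.

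Tox, an HMG-box factor of CD4 T cell development that is also high in follicular helper cells (chromosome 4, 6613500 to 6917946, minus strand, mm9), stood at 104 and 99.6 CPM in KO and 121 and 108 CPM in WT. Both KO libraries lay below both WT libraries. KO over WT this gave a log2 fold change of -0.17 ± 0.10 (95% interval -0.42 to 0.08), which was -0.22 among the replicate 1 libraries and -0.12 among the replicate 2 libraries. It ran from -0.25 without WT replicate 2 to -0.09 without WT replicate 1. Tox2, its relative that promotes follicular helper differentiation (chromosome 2, 163028861 to 163149906, plus strand, mm9), had the fewest counts of the members, from 398 to 557 per library. It stood at 13.0 and 7.74 CPM in KO and 17.2 and 8.75 CPM in WT, with the replicate 1 libraries high in both genotypes and the groups overlapping. The log2 fold change of -0.32 ± 0.39 had the widest interval of the 10 members, from -1.29 to 0.65. It turned to 0.02 when KO replicate 2 was left out and to 0.24 when WT replicate 1 was. In the rest of the family, Tox4, a broadly expressed member, had a log2 fold change of 0.05 ± 0.10, and Tox3 held 1 count over all libraries and was not tested.

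Sh2d1a encodes SAP, the adaptor that SLAM-family receptors need for lasting contact between T and B cells (chromosome X, 39855739 to 39875270, plus strand, mm9). It stood at 48.5 and 46.6 CPM in KO and 51.5 and 47.8 CPM in WT. The groups overlapped, and the log2 fold change was -0.06 ± 0.10 (95% interval -0.32 to 0.20), or -0.0078 without WT replicate 1. Cd40lg encodes CD40 ligand, the T cell signal to CD40 on B cells and dendritic cells (chromosome X, 54465320 to 54477219, plus strand, mm9). It stood at 23.4 and 19.8 CPM in KO and 21.5 and 19.3 CPM in WT, again with overlapping groups. Its log2 fold change was 0.08 ± 0.13 (95% interval -0.25 to 0.42), and it turned to -0.05 without KO replicate 1.

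Of the 9 tested genes of the SLAM list besides Sh2d1a, which holds the receptors and their adaptors, 2 had a positive and 7 a negative log2 fold change and 0 were called by edgeR, by DESeq2 or in the authors' deposited table. Slamf6, a SLAM receptor of follicular and memory-like T cells that signals through SAP, stood at 97.0 and 88.9 CPM in KO and 107 and 109 CPM in WT. Both KO libraries lay below both WT libraries, and the log2 fold change was -0.22 ± 0.09 (95% interval -0.45 to 0.02). Slamf1, the founding receptor of the family, had 0.15 ± 0.10. Sh2d1b1, a SAP-related adaptor known from NK cells, had the lowest unadjusted p of the list (0.0441) on 4 and 3 counts in KO and 10 and 21 counts in WT. Of the 8 tested innate lymphoid and NK cell markers, 7 had a negative log2 fold change and 0 were called by edgeR, while the list of 10 summed to 1080 and 789.5 CPM in KO and 886.5 and 685.9 CPM in WT, mostly from Il1rl1, which Treg cells also express. Ncr1 was at 0 in replicate 1 of both genotypes, and Kit, at 6.16 and 4.92 CPM in KO and 12.3 and 10.7 CPM in WT, was called by DESeq2 (adjusted p = 0.0294) and in the authors' deposited table (0.00738). Their part in the level of Sh2d1b1 was not tested.

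Id3 encodes an inhibitor of E proteins that restrains follicular differentiation and is kept in memory-like cells (chromosome 4, 135699412 to 135701307, plus strand, mm9). It stood at 17.1 and 22.2 CPM in KO and 17.9 and 22.4 CPM in WT, with the replicate 2 libraries high in both genotypes. Its log2 fold change was -0.04 ± 0.18 (95% interval -0.49 to 0.41), and it turned to 0.12 when KO replicate 1 was left out and to 0.13 when WT replicate 2 was. Among the other ID and E protein genes, 3 of 5 tested were positive and 2 negative, and 0 were called by edgeR, by DESeq2 or in the authors' deposited table. Id1, another inhibitor, had 0.44 ± 0.41, and the E protein genes Tcf4 and Tcf3 had 0.16 ± 0.18 and -0.05 ± 0.10. Id1 turned to -0.07 and Tcf4 to -0.0018 without KO replicate 2.

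Tcf7 encodes the transcription factor TCF1, which keeps T cells in a resting or memory-like state and acts early in follicular differentiation (chromosome 11, 52065873 to 52096681, minus strand, mm9). It had the lowest p of the 10 members and stood at 100.02 and 101.2 CPM in KO and 116 and 112 CPM in WT. The libraries of each genotype were close together, both KO libraries lay below both WT libraries, and KO stood at 0.885 times the WT level (95% interval 0.762 to 1.03). This was a log2 fold change of -0.18 ± 0.09, with an unadjusted p of 0.0910 by edgeR that ranked 733 of 14274 genes. The value ran from -0.20 to -0.15 when any 1 library was left out, and its adjusted p did not go below 0.999 in these fits. Lef1, the close relative of Tcf7 that works with it (chromosome 3, 130813389 to 130927274, plus strand, mm9), stood at 58.8 and 60.9 CPM in KO and 67.1 and 61.0 CPM in WT. The replicate 2 libraries of both genotypes were nearly equal, and the high value was that of WT replicate 1. Its log2 fold change was -0.10 ± 0.10 (95% interval -0.36 to 0.16), at -0.19 among replicate 1 libraries and -0.0032 among replicate 2 libraries, and -0.03 without WT replicate 1. Of the 8 other tested genes of the TCF, LEF and beta-catenin list, 5 were positive and 3 negative and 0 were called by edgeR, by DESeq2 or in the authors' deposited table. Pygo2, a beta-catenin co-activator, had 0.11 ± 0.11, and Bcl9, another, had -0.24 ± 0.21. Tcf7l2, a TCF relative best known in epithelium, held 16 and 31 counts in KO and 12 and 3 counts in WT.

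**Figure D2:**
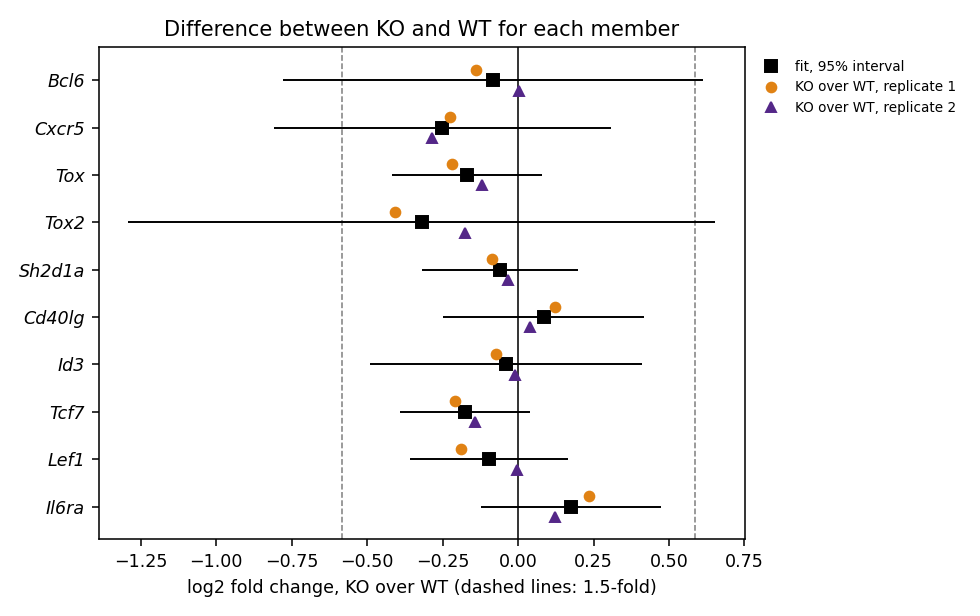
Log2 fold change of KO over WT (x axis) for each member. The square and bar are the fitted value and its 95% interval, derived from the edgeR test. The circle is the ratio among the replicate 1 libraries and the triangle that among the replicate 2 libraries. Dashed lines mark 1.5-fold. All 10 intervals include 0, and those of Bcl6, Cxcr5 and Tox2 cross a dashed line.

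Il6ra encodes the receptor chain for interleukin 6, which signals through the shared chain encoded by Il6st and through STAT3 and can induce Bcl6 (chromosome 3, 89673246 to 89717084, minus strand, mm9). It stood at 37.5 and 40.1 CPM in KO and 31.8 and 36.9 CPM in WT. Both KO libraries lay above both WT libraries, narrowly so for KO replicate 1 and WT replicate 2, and the log2 fold change was 0.17 ± 0.12 (95% interval -0.12 to 0.47). It ran from 0.07 without WT replicate 1 to 0.29 without WT replicate 2. Within this pathway 8 of the 10 other tested genes were positive and 2 negative, 0 were called by edgeR, and 1 was called by DESeq2 and by the authors' deposited table.

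The called gene was Adam17, the protease that sheds the interleukin 6 receptor and other proteins from the cell surface. Its level was 244 and 266 CPM in KO and 174 and 166 CPM in WT, with both KO libraries above both WT libraries. Adam17 had a log2 fold change of 0.59 ± 0.09 (95% interval 0.36 to 0.81). DESeq2 called Adam17 higher in KO (adjusted p = 8.02e-04), and the authors' deposited table gave 0.0256. The main edgeR test, of genotype alone after the filter on low counts, did not call it (adjusted p = 0.839). Without that filter Adam17 passed (adjusted p = 0.0189, log2 fold change 0.58). When the model also held replicate number, a pairing the labels do not establish, Adam17 passed as well (adjusted p = 9.2e-08, log2 fold change 0.59). DESeq2 no longer called it with 3 libraries, with adjusted p of 0.163 and 1.00 when KO replicate 1 or 2 was left out and of 0.145 and 0.499 when WT replicate 1 or 2 was, while the log2 fold change stayed between 0.53 and 0.64. Those fits leave 1 library in a genotype. Epithelial markers, of which 7 of 9 tested had a positive log2 fold change, summed to 28.65 and 44.55 CPM in KO and 27.37 and 27.75 CPM in WT. Of these, Krt8 and Car1 were at 0 in WT replicate 1 and Krt19 and Krt20 in WT replicate 2, none was at 0 in KO, and Krt8 was called by DESeq2 (adjusted p = 8.00e-04) and, with Krt19 and Car1, in the authors' deposited table. Their part in the level of Adam17 was not tested. Socs3, the feedback inhibitor that STAT3 induces, stood at 540.3 and 515 CPM in KO and 417 and 338 CPM in WT, a log2 fold change of 0.48 ± 0.12 that was not called by edgeR (adjusted p = 1.00), by DESeq2 (0.219) or in the authors' deposited table (0.198). Il6st had -0.13 ± 0.09, with both KO libraries below both WT libraries.

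A related or opposing gene can be set against a member within a library, where no scaling enters. The pairs were chosen after their values were seen, and the ratios are of counts, so their size carries the gene lengths and only their shift between libraries can be read. The log2 ratio of Bcl6 to Prdm1, the gene of the opposing repressor BLIMP1, was -0.65 and -1.40 in KO and -0.38 and -1.16 in WT, and the groups overlapped. Prdm1 itself had a log2 fold change of 0.19 ± 0.11. Plasma cell markers, 5 found of 7, summed to 353.9 and 577 CPM in KO and 349.4 and 459.6 CPM in WT. Of these, 4 had a positive and 1 a negative log2 fold change, and their part in the level of Prdm1 was not tested. The log2 ratio of Id3 to Id2, an ID protein of effector cells, was -5.96 and -5.43 in KO and -5.86 and -5.40 in WT, also with overlap. The log2 ratio of Tox to Tox2 was 3.00 and 3.69 in KO and 2.81 and 3.63 in WT, again with overlap. The log2 ratio of Tcf7 to Lef1 was 0.77 and 0.73 in KO and 0.79 and 0.87 in WT, with both KO values below both WT values. That of Il6ra to Il6st was -3.74 and -3.54 in KO and -4.11 and -3.79 in WT, so both KO values lay above both WT values. That of Il6ra to Adam17 was -2.70 and -2.73 in KO and -2.45 and -2.17 in WT, and both KO values lay below both WT values. Il6ra itself had a positive log2 fold change (0.17) and Adam17 a larger one (0.59). The lower ratio in KO thus follows from the higher level of Adam17 and does not show less Il6ra. The log2 ratio of Cxcr5 to Ccr7, the receptor that holds T cells in the T cell zone, was -3.65 and -4.05 in KO and -3.41 and -3.51 in WT, and both KO values were the lower. The ratios were not tested, and the share of other gene pairs with separate groups was not computed. Among single genes tested, the groups did not overlap for 27.0%.

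For several members, as for most genes tested, the single libraries of a genotype differed more than the genotypes, each of 2 libraries, did. The mean size of the log2 difference between replicate 1 and replicate 2 was larger than that of the log2 fold change for 6 of the 10 members, against 72.7% of all genes tested, a share below that background. Replicate 1 was higher in both genotypes for 6 members, against 34.3% of all genes tested, and lower in both for 2, Id3 and Il6ra. The share of all genes lower in both was not computed. Tox2 had the largest differences among the members, with a log2 ratio of replicate 1 over replicate 2 of 0.74 in KO and 0.97 in WT. Bcl6 had 0.55 in KO and 0.69 in WT, and Cxcr5 had 0.50 and 0.44. Id3 went the other way at -0.38 in KO and -0.32 in WT. For Tcf7 the ratios were -0.02 in KO and 0.05 in WT. Summed levels of other cell types moved with replicate number too. The 10 macrophage markers found of 11 summed to 109.9 and 47.2 CPM in KO and 150.0 and 66.6 CPM in WT. Within each replicate number this sum was the lower in KO, and 8 of the 10 had a negative log2 fold change. The 9 stromal and endothelial markers summed to 116 and 183 CPM in KO and 121 and 176 CPM in WT. Of these, 7 had a positive log2 fold change. Pecam1 made up most of the replicate 1 sums, at 105 and 107 CPM in KO and 107 and 113 CPM in WT. The others were all higher in replicate 2, such as Col3a1 at 4.01 and 44.8 CPM in KO and 5.55 and 37.8 CPM in WT. No marker of either list was at 0 in any library, and 0 were called by edgeR. Their part in the levels of the members was not tested.

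**Figure D3:**
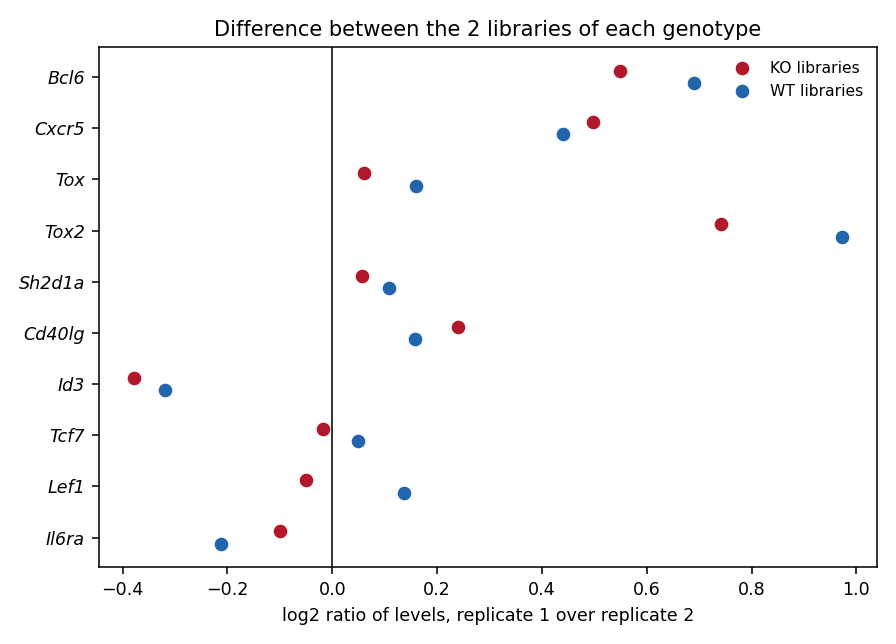
Log2 ratio of replicate 1 over replicate 2 (x axis) for each member within the KO (red) and the WT (blue) libraries. Bcl6, Cxcr5 and Tox2 lie right of 0.40 in both genotypes, Id3 lies left of 0, and Tcf7 lies near 0 in both.

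Outside the members, the wider follicular and memory-like lists gave values on both sides of 0. Of 19 other follicular helper and follicular regulatory genes tested, 12 were positive and 7 negative, with a median log2 fold change of 0.06, and 0 were called by edgeR, 1 by DESeq2 and 0 in the authors' deposited table. The gene that DESeq2 called was Il21, the cytokine of follicular helper cells, at 13.5 and 13.7 CPM in KO and 7.15 and 7.49 CPM in WT. Its log2 fold change was 0.89 ± 0.13 (DESeq2 adjusted p = 0.0268, edgeR 0.666, 0.181 in the authors' deposited table), and edgeR called it with no filter on low counts (adjusted p = 0.0189). DESeq2 no longer called it when any 1 library was left out (adjusted p = 1.00 each time), while the log2 fold change stayed between 0.86 and 0.92. Il1r2, a decoy receptor for interleukin 1 found on follicular regulatory cells, stood at 98.3 and 96.9 CPM in KO and 78.4 and 70.7 CPM in WT, a log2 fold change of 0.39 ± 0.10. Rgs16, a regulator of G protein signalling, had 0.46 ± 0.13. Neither was called by edgeR (adjusted p = 1.00 for both) or by DESeq2 (0.664 for Il1r2 and 0.522 for Rgs16). At an unadjusted p under 0.05 by edgeR, 5 of these 19 genes were higher in KO and 1 was lower, against 2.85% of all genes tested. The higher ones were Il21, Il1r2, Rgs16, Angptl2 (0.46 ± 0.14) and Pdcd1 (0.36 ± 0.11), and the lower one was Cd200 (-0.36 ± 0.14). The list was chosen with earlier results of these data known, and no test of the list was run.

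Of the 12 other genes tested of the BCL6 and BLIMP1 list, 8 were positive and 4 negative, with log2 fold changes from -0.14 to 0.19. Gpr183, a receptor that positions cells outside the follicle, had 0.18 ± 0.10, and Stat5a, which opposes BCL6 downstream of interleukin 2, had 0.15 ± 0.12 and was -0.0011 without WT replicate 2. Of the 18 other naive and memory-like genes tested, 10 were positive and 8 negative, with a median of 0.03. Besides Slamf6, the named ones were Myb and Satb1. Myb, a transcription factor of memory-like and effector Treg cells, stood at 44.0 and 46.4 CPM in KO and 36.7 and 32.7 CPM in WT, a log2 fold change of 0.38 ± 0.11. Satb1, a chromatin organiser, had 0.23 ± 0.12. In both lists 0 genes were called by edgeR, by DESeq2 or in the authors' deposited table.

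**Figure D4:**
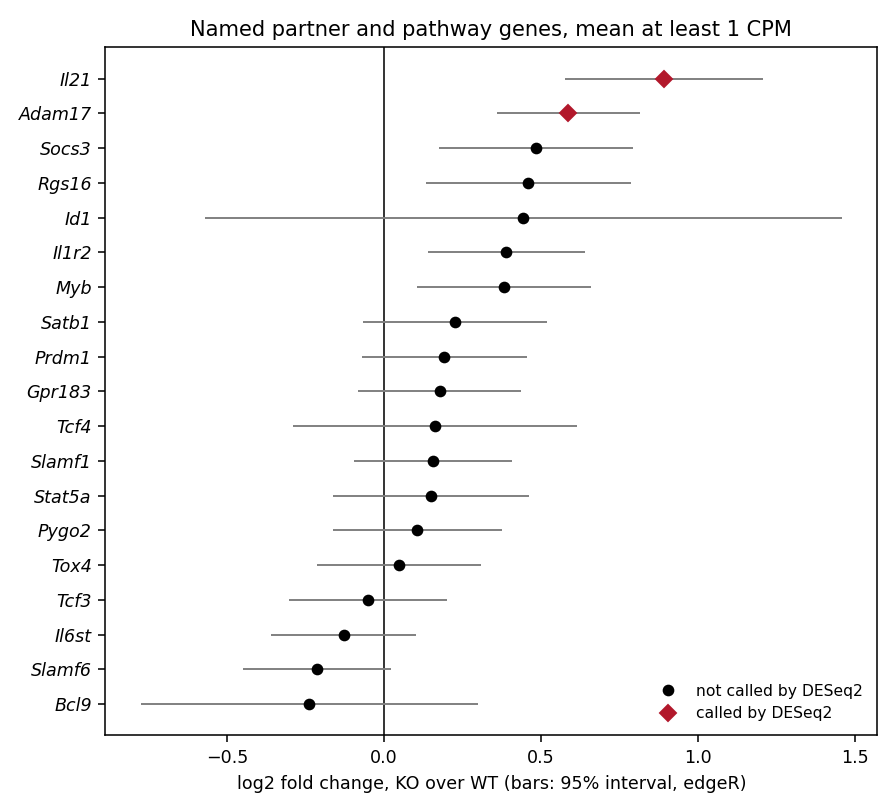
Log2 fold change of KO over WT (x axis) with its 95% interval, derived from the edgeR test, for the named partner and pathway genes. Genes shown had a mean of at least 1 CPM in both genotypes and are ordered by value. Angptl2, Pdcd1 and Cd200 are not drawn. Il21 (0.89) and Adam17 (0.59), drawn as diamonds, were called by DESeq2, and none was called by the main edgeR test.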

How the data were processed

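RNA-seq of 4 samples, 2 KO and 2 WT, was used, and the 4 ATAC-seq samples of the series were not analysed here. Per the labels' protocols, ribosomal RNA was depleted and pooled libraries were read as 50 bp single-end reads. The authors deposited 1 table of whole-number counts per gene and library without normalization, with gene positions and an adjusted p-value whose comparison is not stated and which was read as KO against WT. The submitters' processing notes name TopHat2, DESeq and mm9; versions, counting tool, annotation and strand use were not given in the sources used here. Thus reads of overlapping genes cannot be assigned with certainty. Members and lists were chosen with earlier results of these data known.

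Genotype alone was tested with the quasi-likelihood F-test of edgeR 4.0.16 under R 4.3.3, after filterByExpr (14274 of 19191 rows kept), TMM scaling and Benjamini-Hochberg adjustment over all genes tested, two-sided. The common dispersion was 0.0328, with 3.49 prior and 2 residual degrees of freedom. CPM are relative to the TMM-scaled sum of tested counts, and log2 ratios within a replicate number use a prior count of 2. Besides the members, Ahr and Ahrr, named genes were those called by any tool and the 3 of lowest p in each of 8 context lists. Angptl2, Pdcd1 and Cd200 were added for an unadjusted p under 0.05. DESeq2 1.42.0 and limma 3.58.1 were alternatives. The procedure was run on simulated data with the common dispersion for every gene, no shared deviation of same-numbered libraries and planted changes larger than those of the members. That run does not show how the tests perform on differences of the members' size in these data. RefSeq promoters were matched by symbol.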

Additional observations from a re-analysis of the deposited data

How the results depend on the processing

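Under each of the 9 alternatives that kept all libraries (scaling by upper quartiles or DESeq2 size factors, a stricter filter or none, limma-voom, DESeq2, robust estimation, a replicate block and, added after seeing the data, library totals only), 0 of the 10 members were called, 8 were negative, and the median of the members ran from -0.12 to -0.08. The count of genes called, 0 by edgeR, was 52 with no filter (Adam17 and Il21 among them), 48 with DESeq2 and 458 with the replicate number as a block. Same-numbered libraries deviated together (correlation across genes 0.641), but the labels do not say whether the numbers pair the samples or mark a batch, and with 2 numbers the pairing was not taken as established. With that block the lowest adjusted p of a member was 0.108, for Cxcr5, and the context genes called were Adam17, Il21, Socs3, Rgs16, Il1r2, Myb, Satb1, Angptl2, Pdcd1 and Tnfsf8, all higher in KO, and Cd200, lower in KO (-0.36). Leaving out each library in turn called 0 members and 0 to 2 genes, left 6 to 8 members negative and gave a median of the members from -0.18 to -0.013. The members that changed sign ranged from -0.39 to 0.30 (Bcl6), -0.74 to 0.24 (Tox2), -0.24 to 0.13 (Id3) and -0.049 to 0.20 (Cd40lg), and the other genes that did so ranged from -0.067 to 0.79 (Id1), -0.0018 to 0.29 (Tcf4), -0.060 to 0.16 (Tox4) and -0.0011 to 0.31 (Stat5a). Such fits leave 1 library in a genotype, assumed to vary like the others, and mix unequal replicate numbers. With 2 libraries per genotype, the interval of Tox2 allows a log2 difference as low as -1.29. Repeating DESeq2 with 3 libraries was likewise added after seeing the data.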
